A study of Mus musculus with 18 samples.

Results

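Expression of 10 genes of DNA methylation and chromatin was followed across the cells of the adult mouse stomach: Dnmt1, Uhrf1 and Hells, Dnmt3a and Tet2, Ezh2 and Suz12, and Hmga1, Hmgb1 and Hmgb2. They were taken by name, with earlier results of these data known, and all 10 were present among the 29195 gene names of dataset 2 and the 26114 gene names of dataset 1. From these same cells the study had already named Hmgb2 as an isthmus marker and placed Dnmt1 and Hmga1 in its isthmus-related gene group. Single cells of wild-type male C57BL/6J mice of 10 weeks were measured by Quartz-Seq2, a plate method that counts each transcript once by a random tag (UMI). Dataset 1 held corpus and antrum gastric units labelled as sorted ToPro3(-) (the study's methods name the dye PI in its place), in 2 pools on 3 plates each, and dataset 2 held corpus gastric units sorted as Hoechst33342(+) and ToPro3(-), in pools K and T on 6 plates each. Each pool came from 3 mice, so single animals cannot be told apart, and no mouse was treated. The comparisons were therefore between cell types and cell-cycle phases of the same mice, with the 2 pools of a dataset as replicates.

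The stomach corpus is lined by tubular gastric units. Dividing progenitors sit in the isthmus and give rise to pit cells toward the lumen and to neck cells toward the base, and the units also hold acid-secreting parietal cells and enzyme-secreting chief cells. When DNA is copied, CpG methylation is restored on the new strand by DNMT1, which UHRF1 brings to hemimethylated sites and which the remodeller HELLS (LSH) helps in compact chromatin. DNMT3A sets methylation without a template, and TET2 oxidises 5-methylcytosine as a step toward its removal. EZH2, the methyltransferase, and SUZ12, a core subunit, belong to Polycomb repressive complex 2 (PRC2), which methylates histone H3 at lysine 27. HMGA1, HMGB1 and HMGB2 are high mobility group proteins that bind and bend DNA, and HMGA1 and HMGB2 are known for high levels in proliferating cells.

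All 10 are protein-coding genes. On GRCm39, the build of the count tables, the maintenance genes lie as Dnmt1 at chr9:20817945-20871184 (minus strand), Uhrf1 at chr17:56610275-56630489 (plus strand) and Hells at chr19:38919359-38960047 (plus strand). The other enzymes of DNA methylation are Dnmt3a at chr12:3856007-3964443 (plus strand) and Tet2 at chr3:133169436-133250900 (minus strand). The PRC2 genes are Ezh2 at chr6:47507073-47572331 (minus strand) and Suz12 at chr11:79883891-79925421 (plus strand). The high mobility group genes are Hmga1 at chr17:27775449-27782648 (plus strand), Hmgb1 at chr5:148983445-149121815 (minus strand) and Hmgb2 at chr8:57964687-57969276 (plus strand).

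The short sequences below lie before a RefSeq transcript start of 5 of the genes and carry, in capitals, the letters of 2 motifs known from cell-cycle promoters. They are shown because these genes differed between cell-cycle phases, with the E2F match of 4 genes and the matches to a cell-cycle homology region of Hmgb2. They were read from RefSeq windows (the 250 bases before each transcript start, GRCm38.p6), which matched all 10 genes with 17 entries, and were placed on GRCm39 by exact match. The coordinates are those of the whole stretch. The first base whose distance is given is the first capital letter, which follows 10 flanking bases in lower case. An E2F-type site was searched as TTTCCCGC, TTTGGCGC, TTTCGCGC or TTTGCCGC, the cell-cycle homology region (CHR) as TTTGAA or TTCGAA, and a CCAAT box as CCAAT, each on both strands. E2F letters stood in windows of 4 of the 10 genes (Dnmt1, Hells, Suz12 and Uhrf1) and in 2.16% of the 27025 genes with a window. CHR letters stood in windows of 3 of 10 (Dnmt1, Hmgb2 and Suz12), against 19.6% of all genes, and CCAAT letters in windows of 6 of 10, against 37.5%. A match of letters is a description of the sequence and not a site of binding, and the Dnmt1 letters and the first of Hmgb2 are the motif read on the other strand. In the GRCm39 annotation the stretches of Dnmt1, Uhrf1 and Hells and the second of Hmgb2 overlap an exon of the gene itself, both of Hmgb2 overlap an exon of Gm56857, and that of Suz12 overlaps no exon.
Dnmt1, chr9:20864121-20864148, minus strand, first base 219 bases before the RefSeq start: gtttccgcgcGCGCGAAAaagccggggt
Uhrf1, chr17:56611118-56611145, plus strand, first base 185 bases before the RefSeq start: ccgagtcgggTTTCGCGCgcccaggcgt
Hells, chr19:38919362-38919389, plus strand, first base 62 bases before the RefSeq start: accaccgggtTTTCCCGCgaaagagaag
Suz12, chr11:79883703-79883730, plus strand, first base 219 bases before the RefSeq start: gacccctcatTTTCCCGCgaattcagtt
Hmgb2, chr8:57964649-57964674, plus strand, first base 218 bases before the RefSeq start: cccgccatttTTCAAAcgcttttcct
Hmgb2, chr8:57964837-57964862, plus strand, first base 30 bases before the RefSeq start: actctccgggTTTGAAtaatcctcca

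Dataset 1 kept 491 cells in 15 clusters with a median of 38757 UMIs per cell, and dataset 2 kept 3993 cells in 20 clusters with a median of 31020. The same 384 barcodes were used on every plate, so a cell was identified by plate and barcode. Cell types are the study's names for the deposited clusters of dataset 2: isthmus progenitors (clusters 3, 5, 6, 9 and 11, with 1285 cells), pre-pit (4), mature pit (13), neck (0, 2, 7 and 12), chief (10) and parietal (1 and 8). Levels are given as CPM, the UMIs of a gene per 1000000 UMIs of the summed cells of 1 pool, after TMM scaling within one fit, so a level can be compared between groups of one fit and not between fits or between genes. Markers of 4 of these types stood where the names place them: parietal markers summed to 46365 and 43259.9 CPM in parietal cells of pools K and T, chief markers to 48679 and 57232 in chief cells, pit markers to 143859 and 154482 in mature pit cells, and 6 markers of dividing cells to 895 and 957 in isthmus cells. The neck markers went against their name as a list: the 4 together summed to 7785, 12545, 9060 and 5235 CPM in neck clusters 0, 2, 7 and 12, below the 24620 of pre-pit cluster 4 and the 20715 of isthmus cluster 3. Muc6 alone was highest in neck cells (1437 and 1482 CPM, against 195 and 198 in the isthmus), so the name neck is the study's. Chief markers summed to 14365 CPM in neck cluster 12 against 5235 for neck markers there, and the part of that cluster in the neck values was not tested. Clustering used these same counts, and a p-value between clusters reflects that as well.

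Over the 20 clusters of dataset 2, 8 of the 10 genes had their highest level in a cluster of the isthmus, and Dnmt3a and Tet2 did not. Dnmt1 stood at 236 and 227 CPM in cluster 6 and at 177 and 162.3 in cluster 3 (pools K and T), and the next cluster, 5, had 61.9 and 72.1. The remaining 17 clusters held means from 14.2 in chief cluster 10 to 39.6 in cluster 19, which has 9 cells. The pool values of clusters 6, 3 and 5 did not overlap, whereas those of cluster 5 overlapped cluster 19 and most later neighbours in the order overlapped each other. Uhrf1 and Hells, its partners in maintenance, were highest in clusters 6 and 3 as well, with Uhrf1 at 178 and 165.6 in cluster 6 and 181 and 161 in cluster 3. Hells was 127 ± 0.0573 (mean ± SD, n = 2) in cluster 6 and 148 ± 6.70 in cluster 3. Cluster 5 followed with 20.7 ± 2.50 for Uhrf1 and 14.3 ± 0.429 for Hells, and no other cluster had a mean above 7.10 for Uhrf1 or 10.4 for Hells.

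The PRC2 genes had the same leading clusters. Ezh2 was 156 ± 4.54 in cluster 6, 89.7 ± 4.03 in cluster 3 and 74.2 ± 5.32 in cluster 5, and Suz12 was 132 ± 3.58, 78.8 ± 2.73 and 69.6 ± 4.87 there. Outside the isthmus the highest Ezh2 was 42.2 ± 10.6 in cluster 15, a tuft-like cluster of 32 cells (Dclk1, Trpm5, Avil and Pou2f3 were all detected). Suz12 stayed nearer to its isthmus levels in differentiated cells than Ezh2, with 61.8 in parietal cluster 8 and 60.4 in chief cells. Its lowest mean was 13.1 in cluster 18, which has 13 cells and held 1 UMI of Suz12 in each pool. The high mobility group genes led in other isthmus clusters. Hmgb2 was highest in cluster 5 (626 ± 27.8), then 6 (512 ± 6.99), 9 (299 ± 6.69) and 3 (111 ± 1.96). Hmgb1 shared clusters 5, 9 and 6 as its highest, at 116 ± 14.1, 107 ± 0.845 and 106 ± 11.7, whose pool values overlapped. Hmga1 decreased more evenly, from 65.05 ± 1.17 in cluster 6 to 35.1 ± 3.33 in cluster 11, 29.8 ± 4.23 in pre-pit cells, 22.1 ± 3.29 in mature pit cells and 9.71 ± 2.21 in parietal cluster 1.

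Dnmt3a had a different order. Its highest levels were in clusters of endocrine cells: 100.2 and 97.4 CPM in cluster 16 (D cell-like, with Sst, Hhex and Chgb), 95.9 and 64.2 in cluster 17 (X/A cell-like, with Ghrl, Mboat4 and Chgb) and 86.0 and 72.3 in cluster 14 (ECL cell-like, with Hdc, Chga and Slc18a2). These sums rested on 20 and 30, 32 and 20 and 49 and 50 UMIs of Dnmt3a in pools K and T. The macrophage-like cluster 18, with 13 cells, had 74.5 ± 44.1, the parietal clusters 1 and 8 followed at 52.9 ± 0.288 and 52.0 ± 2.43, and cluster 5 of the isthmus was lowest at 18.3 ± 3.61. In dataset 1 the highest Dnmt3a was likewise in the cluster with endocrine markers (cluster 9, with Ghrl, Gast, Chga and Sst), at 122 and 89.0 in pools 1 and 2. Tet2 ranged the least over the clusters: apart from cluster 18 at 70.4 and 57.7, the means ran from 12.7 in cluster 15 and 15.2 in cluster 6 to 35.4 in neck cluster 7, and most neighbours in the order overlapped. The values of cluster 18 rest on 8 cells of pool K and 5 of pool T.

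**Figure D1:**
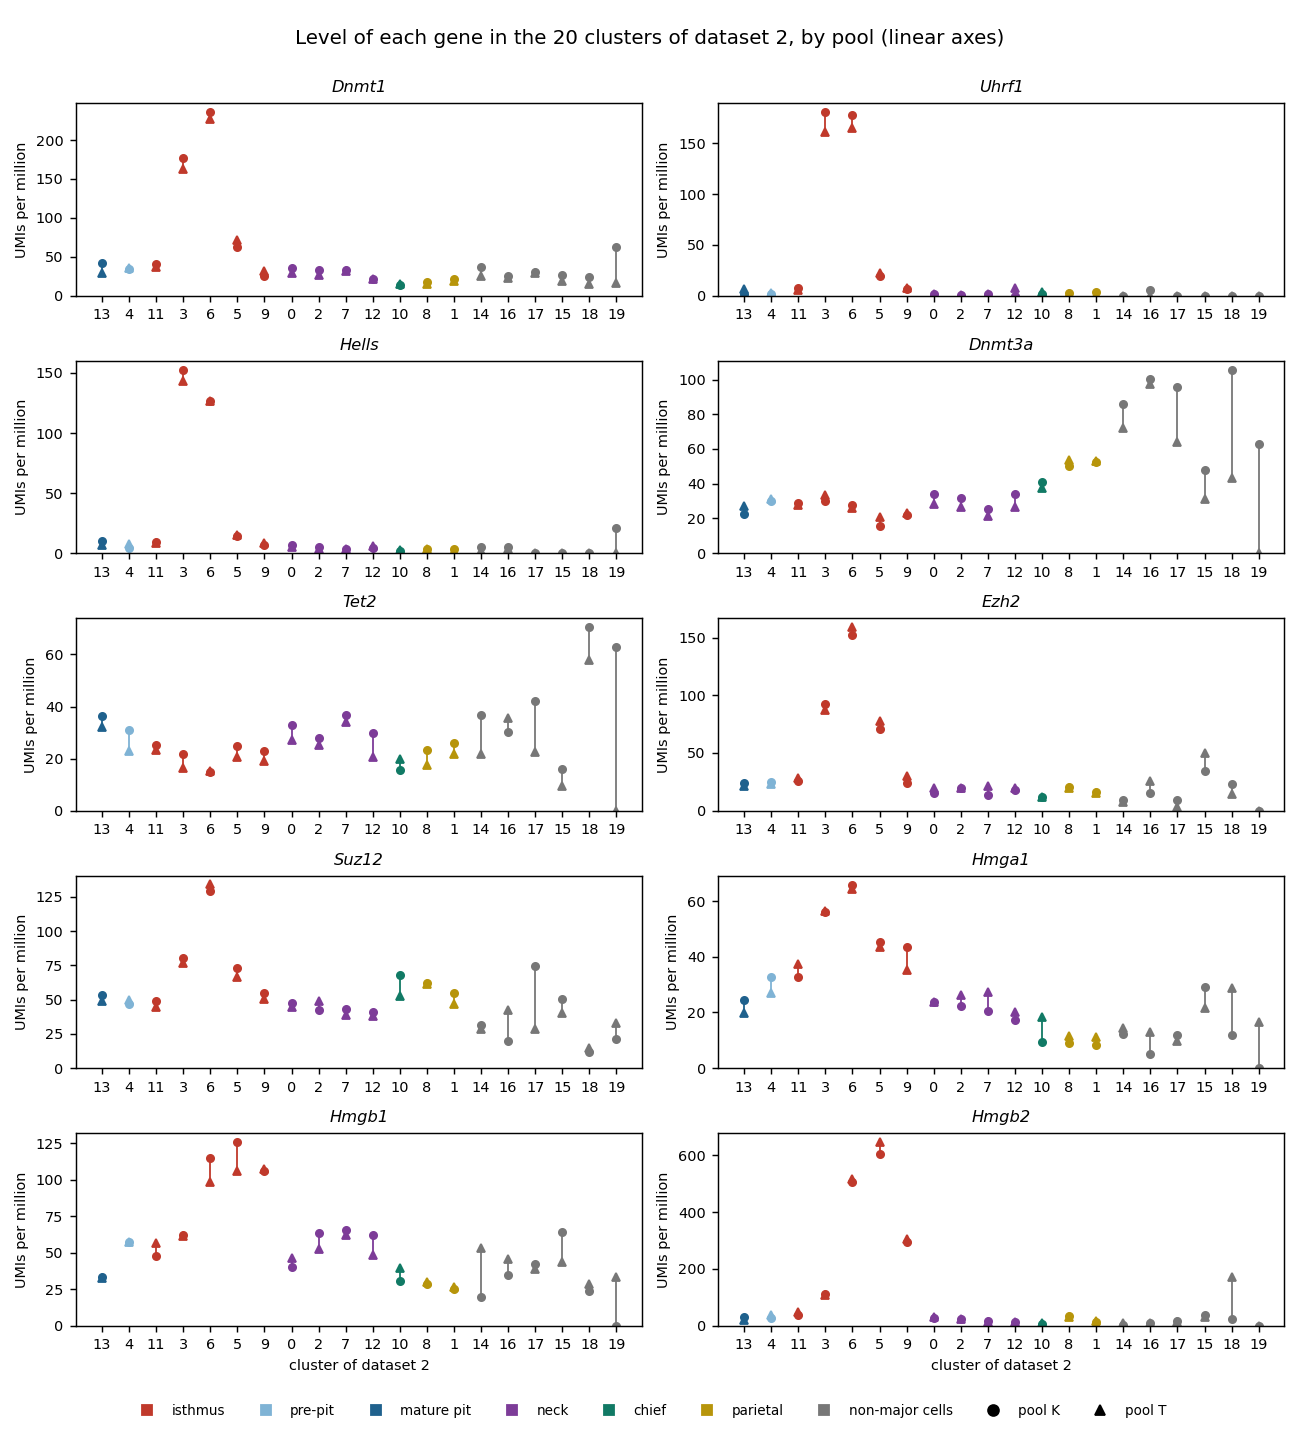
CPM (UMIs per 1000000, linear axis) of each gene in the 20 clusters of dataset 2, with a circle for pool K and a triangle for pool T joined by a line, and colours for cell types. Isthmus clusters 3, 5 and 6 hold the highest means of 8 genes, while Dnmt3a is highest in the grey clusters 14, 16, 17 and 18 and Tet2 is nearly flat apart from cluster 18, which has 13 cells.

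Isthmus progenitors were then compared with each differentiated type of dataset 2 over all their cells. In each of the 5 comparisons, 8 of 10 genes were higher in the isthmus: Dnmt1, Uhrf1, Hells, Ezh2, Suz12, Hmga1, Hmgb1 and Hmgb2 (edgeR quasi-likelihood test, Benjamini-Hochberg adjusted p under 0.05 over 13894 genes, all 10 members past the filter on low counts). Of all genes tested, 27.8% were called against pre-pit cells (15.5% higher), 38% against mature pit (20.1% higher), 50.7% against neck (24.3% higher), 55.4% against chief (29.5% higher) and 71.8% against parietal cells (36.7% higher). The median log2 fold change of the 10 genes was 1.25, 1.61, 1.54, 2.28 and 2.28 in that order, and that of all genes lay between -0.056 and 0.073.

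Dnmt1 was 101 and 95.9 CPM in isthmus cells of pools K and T. It was 28.0 and 29.3 in pre-pit, 34.98 and 23.9 in mature pit, 26.1 and 23.4 in neck, 16.4 and 13.8 in parietal and 11.2 and 12.3 in chief cells. The isthmus values stood clear of every other type, and the log2 fold change was 1.78 ± 0.12 (SE) over pre-pit (adjusted p = 1.39e-07), 1.99 ± 0.11 over neck and 3.05 ± 0.17 over chief cells (adjusted p = 6.16e-09). Uhrf1 was 77.1 and 65.8 in the isthmus and at most 5.35 in either pool of any other type, a log2 fold change of 4.31 to 5.70. Hells was 60.8 and 53.6 in the isthmus and at most 8.18 elsewhere, with log2 fold changes of 3.07 to 4.96. Few UMIs stood behind the low values: chief cells held 3 and 7 UMIs of Uhrf1 and 3 and 5 of Hells in the 2 pools. In the comparison with mature pit, Uhrf1 depended on the pool, at a log2 fold change of 5.81 in pool K alone and 3.62 in pool T alone.

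Ezh2 was 67.6 and 70.1 in the isthmus, 20.9 and 19.3 in pre-pit, 13.8 and 16.3 in neck and 10.1 and 9.63 in chief cells. It was 3.44-fold higher than in pre-pit (adjusted p = 3.45e-08) and 7.01-fold higher than in chief cells (adjusted p = 3.54e-09). Suz12, in the same complex, differed less: 66.6 and 65.01 in the isthmus against 35.7 and 36.3 in neck and 56.5 and 43.5 in chief cells, with log2 fold changes of 0.87 ± 0.089 and 0.42 ± 0.11. Hmgb2 in the isthmus was 281 and 307, against 21.5 and 29.8 in pre-pit and 6.15 and 8.47 in chief cells (log2 fold changes 3.51 ± 0.14 and 5.29 ± 0.20). Hmga1 was 41.3 and 39.9 in the isthmus, 27.2 and 22.1 in pre-pit and 6.94 and 9.45 in parietal cells, so that its difference was smallest against pre-pit (0.73 ± 0.16) and largest against parietal cells (2.32 ± 0.16). Hmgb1 was 76.7 and 71.8 in the isthmus, 47.2 and 47.5 in pre-pit and 21.7 and 23.5 in parietal cells, with log2 fold changes of 0.65 ± 0.10 and 1.72 ± 0.10. Hmgb1 and Hmga1 have near-identical copies in the annotation, to which 1.29% and 0.99% as many UMIs were assigned in dataset 2, so reads of the 2 genes may have been split.

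Dnmt3a and Tet2 were not called higher in the isthmus in any of these comparisons with TMM scaling. Dnmt3a was 19.7 and 20.8 in the isthmus, 24.7 and 25.9 in pre-pit, 25.4 and 22.5 in neck, 34.1 and 30.8 in chief and 42.8 and 44.4 in parietal cells. The largest difference was against parietal cells, at -1.10 ± 0.089 on the log2 scale (adjusted p = 6.8e-08). The differences from chief (-0.67 ± 0.13), pre-pit (-0.32 ± 0.11, adjusted p = 0.0407) and neck cells (-0.24 ± 0.092, adjusted p = 0.0419) passed the threshold, and the difference from mature pit was -0.018 ± 0.13 (adjusted p = 0.944). Without TMM scaling the chief difference turned to 0.21, and the pre-pit and neck calls were lost under 3 and 5 of the alternative settings. Tet2 was 17.4 and 15.02 in the isthmus, 30.4 and 26.0 in mature pit and 26.1 and 22.3 in neck cells, and was lower in the isthmus than in mature pit (-0.79 ± 0.19, adjusted p = 0.00424) and neck (-0.58 ± 0.14, adjusted p = 0.00371). Without TMM scaling the mature pit difference was -0.44 (adjusted p = 0.0778). The difference of Tet2 from pre-pit was -0.45 ± 0.17 (adjusted p = 0.0583), with its differences from chief (0.13 ± 0.23) and parietal cells (-0.21 ± 0.15) also short of the threshold. With the pool as a block the pre-pit difference passed (adjusted p = 0.00801), and without TMM scaling Tet2 was higher in the isthmus than in chief cells (1.01, adjusted p = 0.00131).

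Differentiated types were also compared with each other. From pre-pit to mature pit, only Hmgb1 of the 10 passed the threshold, falling from 47.2 and 47.5 to 28.2 and 26.4 (-0.80 ± 0.14, adjusted p = 0.00231), where 10.4% of all genes were called, so 1 of 10 was near the share of all genes. Chief cells against neck cells gave 7 calls of 10, where 38.6% of all genes were called (18.6% higher and 19.9% lower). Hmgb2 (-1.34 ± 0.26), Dnmt1 (-1.06 ± 0.20), Tet2 (-0.71 ± 0.22), Ezh2 (-0.61 ± 0.18) and Hmgb1 (-0.60 ± 0.13) were lower in chief cells. Dnmt3a (0.43 ± 0.13) and Suz12 (0.45 ± 0.12) were higher in chief cells, and both turned to lower (-0.39 and -0.37) without TMM scaling. Dropping that scaling moved the median of all genes by -0.82 in this comparison, and Hmga1 was also called with the pool as a block (adjusted p = 0.0394). The calls of Dnmt3a and Suz12 were also lost with no filter on low counts (adjusted p = 0.186 and 0.0652), and that of Ezh2 in DESeq2 (adjusted p = 0.0836).

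The phase calls deposited with the cells were next used to divide the isthmus, which held 172 cells called G1 (67 in pool K and 105 in pool T), 489 called S (239 and 250) and 624 called G2/M (261 and 363). The calls were remade from the phase gene lists shipped with Seurat, and 99.6% of the cells of dataset 2 got the same phase. Those lists hold Uhrf1 and Hells (S) and Hmgb2 (G2/M), so the differences of these 3 genes between deposited phases are a description with no test. Phase and cluster overlap strongly: cluster 3 was called S throughout, cluster 5 G2/M, most G1 cells were in cluster 11 (61 and 92 cells), and only cluster 6 held at least 10 cells of both S and G2/M in each pool.

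Dnmt1 was 26.4 and 26.4 CPM in G1, 176 and 169.3 in S and 77.0 and 85.1 in G2/M cells of the isthmus (pools K and T). The 3 phases did not overlap, and S exceeded G1 by 2.71 ± 0.12 on the log2 scale (adjusted p = 5.73e-11), G2/M exceeded G1 by 1.62 ± 0.12, and G2/M minus S was -1.09 ± 0.09 (adjusted p = 1.47e-07). Ezh2 followed the same order with 21.4 and 21.6 in G1, 97.8 and 98.5 in S and 66.3 and 76.3 in G2/M (S minus G1 2.19 ± 0.12, G2/M minus G1 1.73 ± 0.12, G2/M minus S -0.46 ± 0.086). Suz12 rose from 40.8 and 36.9 in G1 to 79.7 and 82.6 in S and 74.2 and 72.0 in G2/M, with S minus G1 at 1.07 ± 0.11 (adjusted p = 8.97e-07) and G2/M minus S at -0.15 ± 0.086 (adjusted p = 0.224).

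Hmga1 was 28.0 and 32.2 in G1, 54.8 and 53.7 in S and 41.5 and 40.2 in G2/M, so S was highest (S minus G1 0.83 ± 0.15, adjusted p = 0.000743, and G2/M minus S -0.41 ± 0.13, adjusted p = 0.0265). Its G2/M minus G1 difference of 0.42 ± 0.15 had an adjusted p of 0.0544, and 0.0301 with the pool as a block. Hmgb1 was 43.6 and 59.5 in G1, 66.5 and 62.4 in S and 105 and 91.9 in G2/M, so G2/M was highest (G2/M minus G1 0.90 ± 0.13, adjusted p = 7.52e-05, and S minus G1 0.29 ± 0.13, adjusted p = 0.124). Dnmt3a was lowest in G2/M, with 27.6 and 23.3 in G1, 27.4 and 28.3 in S and 16.2 and 19.5 in G2/M (G2/M minus G1 -0.49 ± 0.13, adjusted p = 0.0121, and G2/M minus S -0.63 ± 0.11, adjusted p = 0.000406). With no filter on low counts the G2/M minus G1 call of Dnmt3a was lost (adjusted p = 0.0761) and Hmgb1 was called in S minus G1 (adjusted p = 0.0328). Tet2 stood at 21.0 and 18.4 in G1, 17.2 and 16.1 in S and 20.1 and 16.1 in G2/M, with no pair past the threshold (S minus G1 -0.22 ± 0.19, adjusted p = 0.432).

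Of the 7 genes outside the phase lists, 4 were therefore higher in S than in G1 and none lower, where 25.9% of all genes were called (14.5% higher). Between G2/M and G1, 4 were higher and 1 lower (25.1% of all genes called), and between G2/M and S, 1 was higher and 4 lower (23.2% called). The median over all 10 genes was 1.51, 1.27 and -0.43, beside -0.024, -0.028 and 0.002 over all 12576 genes. These medians include Uhrf1, Hells and Hmgb2, which are in the phase lists, so they are a description and do not measure the 7 genes alone.

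The 3 genes of the phase lists had the widest spread between deposited phases. Uhrf1 was 3.89 and 3.76 in G1, 179 and 171.3 in S and 29.6 and 29.8 in G2/M. Hells was 4.67 and 3.76 in G1, 140.2 and 138 in S and 23.7 and 24.98 in G2/M, so both were highest in S. Hmgb2 was 33.8 and 47.8 in G1, 153 and 167.6 in S and 475 and 497 in G2/M. To test them apart from their own part in the calls, the phases were called again without the 10 genes, which left 99.61% of the 1285 isthmus cells in the same phase. With these calls Uhrf1 was higher in S than in G1 by 5.604 ± 0.22 (adjusted p = 2.75e-11), Hells by 5.05 ± 0.24 (adjusted p = 1.72e-10) and Hmgb2 in G2/M over G1 by 3.52 ± 0.15 (adjusted p = 1.86e-11), where 25.5% and 25.1% of all genes were called. Uhrf1 and Hells thus peaked in S and Hmgb2 in G2/M also by calls that did not use them.

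**Figure D2:**
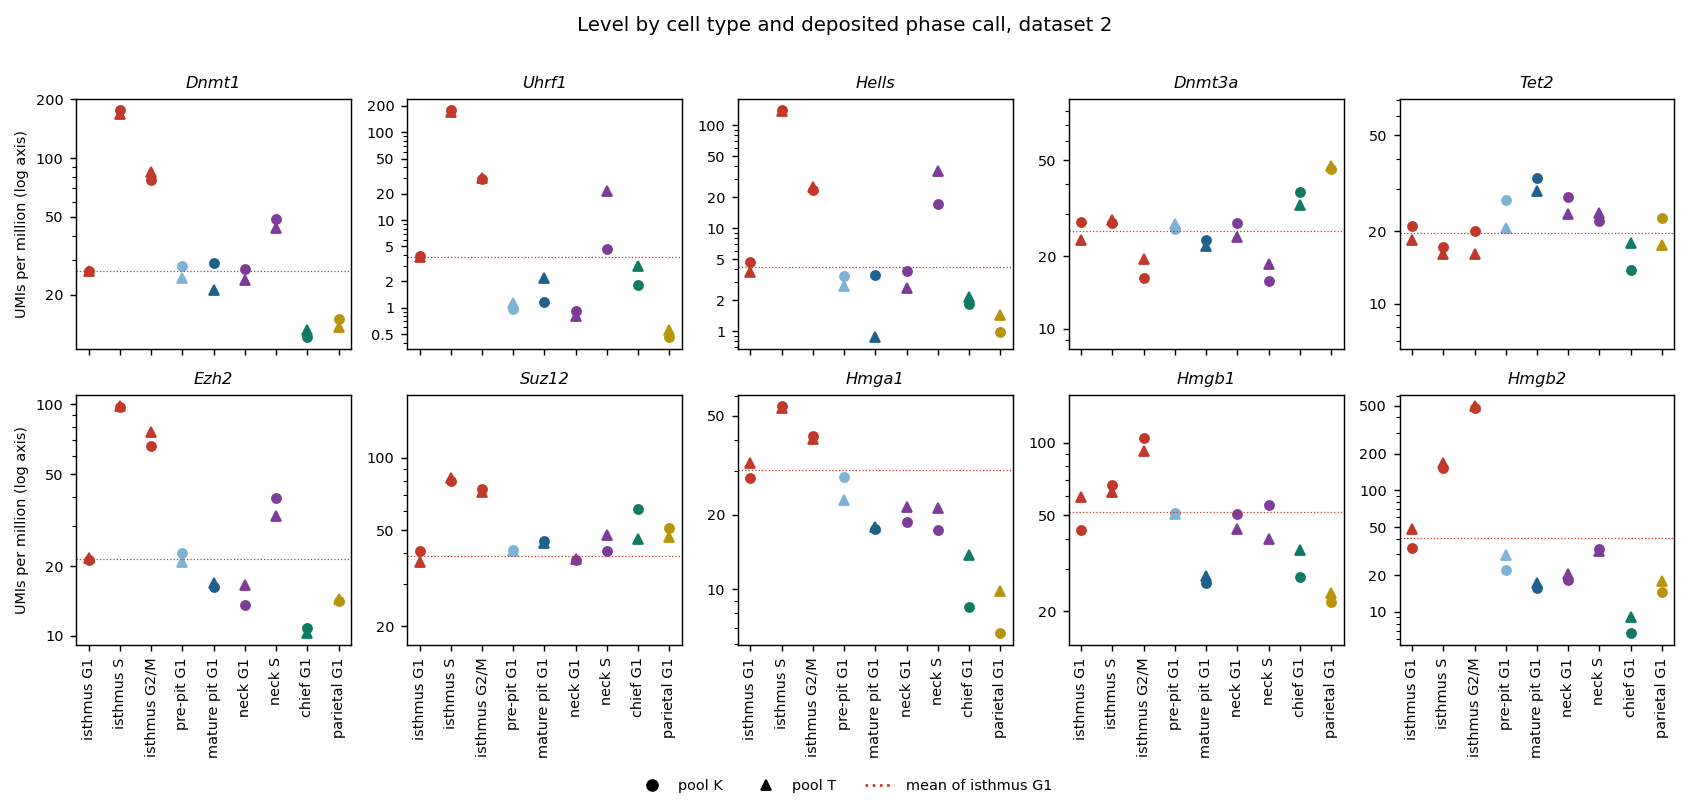
CPM (log axis) of each gene by cell type and deposited phase in dataset 2, with a circle for pool K, a triangle for pool T and a dotted line at the mean of isthmus cells called G1. The S and G2/M points of the isthmus stand above the line for most genes, and the G1 points of pre-pit, mature pit and neck cells lie near the line for Dnmt1 and Suz12 and below it for Hmgb2.

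Levels were then compared by cluster and phase together. Dnmt1 was 281 and 265 in S cells of cluster 6, 205 and 202 in G2/M cells of cluster 6, 180.0 and 165.6 in cluster 3 (S), 63.0 and 72.3 in cluster 5 (G2/M), 26.8 and 32.1 in cluster 9 (G2/M) and 32.0 and 29.7 in cluster 11 (G1). Cells called G2/M thus covered nearly the whole range, and those of cluster 9 overlapped the G1 cells of cluster 11. Ezh2 was likewise highest in S cells of cluster 6 (176 and 168.4), and it was 26.4 and 31.8 in cluster 9 and 26.1 and 25.4 in cluster 11, which did not overlap. Suz12 was 123 and 128 in S and 136 and 140.3 in G2/M cells of cluster 6, the opposite direction to all isthmus cells. Uhrf1 was 292 and 286 in S and 92.2 and 79.1 in G2/M cells of cluster 6 and 7.30 and 7.89 in cluster 9. Hmgb2 differed from these, with 626 and 639 in G2/M cells of cluster 6, 617.8 and 648 in cluster 5, 321 and 342 in cluster 9 and 364 and 358 in S cells of cluster 6. The dividing markers of cluster 9 summed to 617 CPM, against 1870 in cluster 5, 1931 in cluster 6 and 82 in cluster 11.

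Within cluster 6 alone, a comparison added after the data were seen, the G2/M minus S difference of Dnmt1 was -0.42 ± 0.086 (adjusted p = 0.00828), less than over all isthmus cells, and that of Hmga1 was -0.44 ± 0.12 (adjusted p = 0.0428). Both stayed past the threshold, where 7.58% of all genes were called. Dnmt3a (-0.56 ± 0.17, adjusted p = 0.0613), Ezh2 (-0.24 ± 0.089, adjusted p = 0.122) and Hmgb1 (0.089 ± 0.13, adjusted p = 0.743) did not pass within this cluster, nor did Suz12, which turned to 0.13 ± 0.093 (adjusted p = 0.432). Cluster 6 held 52 and 76 cells called S and 55 and 87 called G2/M in pools K and T.

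**Figure D3:**
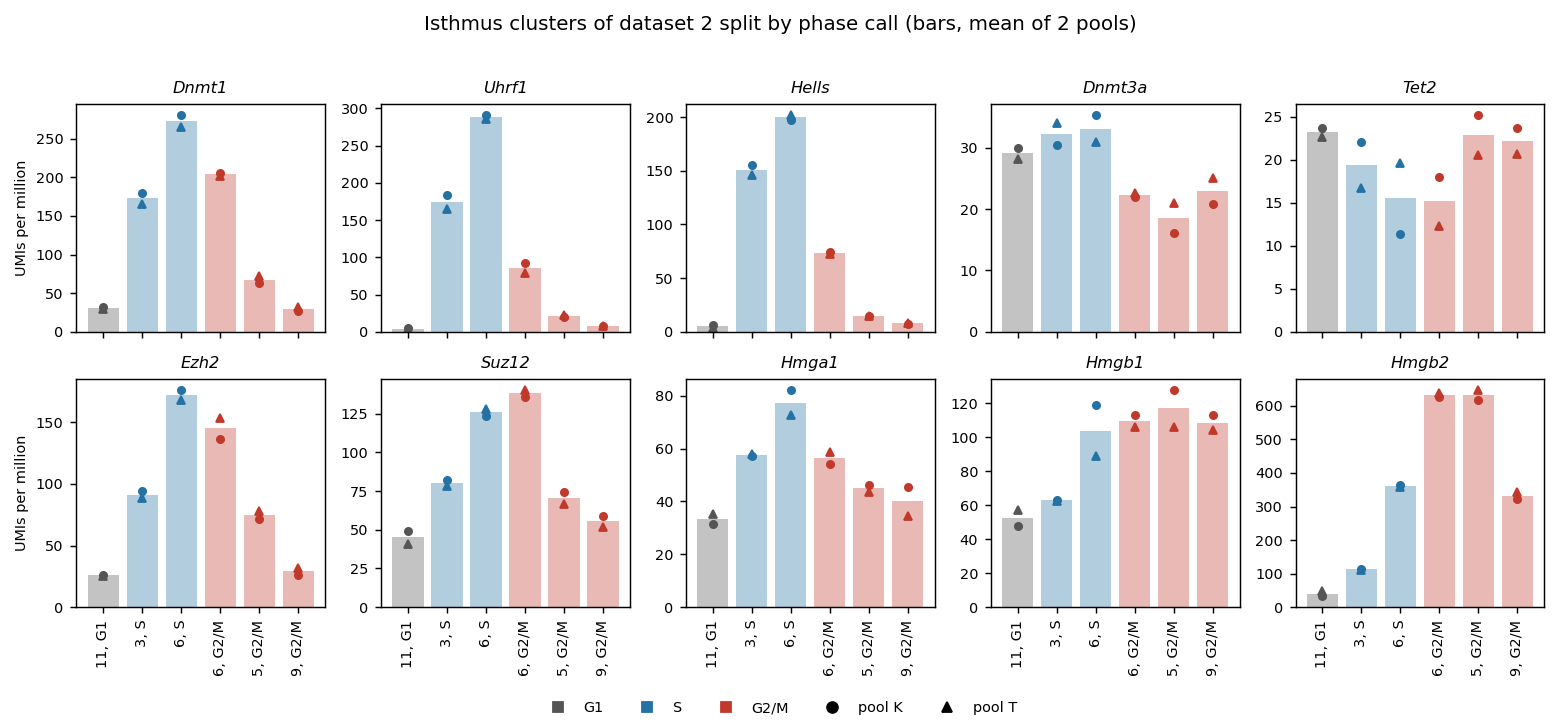
CPM (linear axis from 0) in the isthmus clusters of dataset 2 split by phase call, with bars for the mean of pools K (circle) and T (triangle). Dnmt1, Uhrf1, Hells and Ezh2 are highest in S cells of cluster 6 and fall through cluster 5 to cluster 9, while Hmgb2 is as high in cluster 5 as in the G2/M cells of cluster 6.

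To hold the phase call fixed, isthmus cells called G1 were compared with cells of each differentiated type called G1. Against G1 pre-pit cells, 2 of 10 genes were higher and none lower (Uhrf1 and Hmgb2), where 10% of all 12576 genes were called (5.9% higher and 4.14% lower). The counts were 3 higher and 1 lower against mature pit (29.6% called), 4 and 0 against neck (30.8% called), 5 and 2 against chief (49.3% called, 23% lower) and 7 and 2 against parietal cells (64.9% called). The median log2 fold change of the 10 genes was 0.033, 0.58, 0.24, 0.87 and 1.04 in that order, beside 0.021, 0.069, 0.016, 0.058 and 0.044 over all genes. These counts and medians include Uhrf1, Hells and Hmgb2, which are in the phase lists. Low levels of them were part of the G1 call in both types of each comparison. No gene outside the phase lists passed against G1 pre-pit cells.

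Dnmt1 in G1 was 26.4 and 26.4 in the isthmus, 27.9 and 24.4 in pre-pit, 29.2 and 21.2 in mature pit and 26.96 and 23.8 in neck cells (pools K and T). These 4 types overlapped, and the log2 fold change of the isthmus was 0.015 ± 0.14 over pre-pit, 0.095 ± 0.17 over mature pit and 0.054 ± 0.13 over neck, where all cells had given 1.78, 1.76 and 1.99. Chief cells (12.1 and 13.3) and parietal cells (15.03 and 13.6) were lower in G1 as well, by 1.05 ± 0.19 (adjusted p = 0.000249) and 0.88 ± 0.14 (adjusted p = 2.43e-05). Against neck a call was made in other models: an additive model of type and phase gave 0.79 ± 0.23 (adjusted p = 0.0117) and cluster 11 against whole neck clusters gave 0.44 ± 0.13 (adjusted p = 0.00609). The additive model takes one phase difference for all types, whereas that of Dnmt1, Ezh2 and Suz12 differed between isthmus and neck (by 1.85 for Dnmt1, below). Cluster 11 held 179 cells, of which 153 were called G1. Neither alternative therefore compares only cells called G1.

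Ezh2 and Suz12 were compared in the same way. Ezh2 in G1 was 21.4 and 21.6 in the isthmus, 22.8 and 20.9 in pre-pit, 16.3 and 16.9 in mature pit, 13.7 and 16.5 in neck and 10.9 and 10.3 in chief cells. The difference from pre-pit was -0.02 ± 0.14 (adjusted p = 0.963), with overlapping pools. That from mature pit was 0.37 ± 0.18 (adjusted p = 0.169), where the pools did not overlap, and it passed without TMM scaling (0.73, adjusted p = 0.00318). Levels in neck (0.51 ± 0.13, adjusted p = 0.0075), chief (1.03 ± 0.20) and parietal cells (0.59 ± 0.13) were lower than the isthmus, of which the neck call was lost with no filter on low counts (adjusted p = 0.0574). Suz12 in G1 was 40.8 and 36.9 in the isthmus and 41.2 and 41.0 in pre-pit cells (-0.09 ± 0.12, adjusted p = 0.69) and 44.9 and 44.1 in mature pit cells (-0.20 ± 0.13, adjusted p = 0.266). Suz12 was 60.9 and 45.7 in chief cells and 50.8 and 46.8 in parietal cells, so that the isthmus was lower (-0.44 ± 0.13 and -0.34 ± 0.11), and both signs turned without TMM scaling (0.42 and 0.14). Both calls were lost in the additive model of type and phase (adjusted p = 0.24 and 0.34), and the chief call with no filter on low counts (adjusted p = 0.0691).

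Hmgb2, a gene of the phase lists, was called against every type in G1: 33.8 and 47.8 in the isthmus against 22.1 and 29.4 in pre-pit, 18.3 and 20.7 in neck and 6.64 and 8.98 in chief cells. The log2 fold changes were 0.69 ± 0.17 (adjusted p = 0.0177), 1.10 ± 0.15 and 2.38 ± 0.25. No Hmgb2 call was lost with phases called without the 10 genes. Hmga1 in G1 was 28.0 and 32.2 in the isthmus, 28.4 and 22.99 in pre-pit, 17.5 and 17.7 in mature pit and 6.63 and 9.80 in parietal cells. It did not pass against pre-pit (0.25 ± 0.18, adjusted p = 0.423) and was higher in the isthmus than in mature pit (0.79 ± 0.22), neck (0.60 ± 0.16), chief (1.41 ± 0.24) and parietal cells (1.90 ± 0.18). Hmgb1 in G1 was 43.6 and 59.5 in the isthmus, 51.0 and 50.5 in pre-pit and 26.3 and 28.1 in mature pit cells, and differed from mature pit (0.95 ± 0.18, adjusted p = 0.00101), chief (0.70 ± 0.18) and parietal cells (1.20 ± 0.14).

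Uhrf1 and Hells, also genes of the phase lists, were near the limit of counting in G1. Uhrf1 had 10 and 16 UMIs in the isthmus (3.89 and 3.76 CPM) and 4 and 5 in pre-pit cells (0.981 and 1.14 CPM), a log2 fold change of 1.83 ± 0.49 (adjusted p = 0.0264). That call was lost with phases called without the 10 genes (adjusted p = 0.073) and with cluster 11 against whole pre-pit cells (adjusted p = 0.0797). Uhrf1 was also higher than in neck (2.11 ± 0.39) and parietal cells (2.88 ± 0.44), and Hells was higher than in parietal cells (1.78 ± 0.41, adjusted p = 0.00116). The Hells differences from neck (0.33 ± 0.34, adjusted p = 0.496) and chief cells (1.03 ± 0.57, adjusted p = 0.147) did not pass, but did in the additive model of type and phase (adjusted p = 0.000227 and 0.0473) and with cluster 11 against whole types (adjusted p = 0.00518 and 0.00093). Neither of these alternatives compares only cells called G1. Dnmt3a in G1 was 27.6 and 23.3 in the isthmus and 26.0 and 27.1 in pre-pit cells, with 46.1 and 47.2 in parietal cells (-0.89 ± 0.12, adjusted p = 6.97e-06). The pre-pit and neck differences of Dnmt3a seen over all cells were -0.081 and -0.04 in G1 and did not pass, and that from chief (-0.45 ± 0.15) turned to 0.41 without TMM scaling and was lost with no filter on low counts and in the additive model (adjusted p = 0.149 and 0.12). Tet2 was lower in the G1 isthmus than in G1 mature pit cells (21.0 and 18.4 against 33.3 and 29.4, -0.68 ± 0.22, adjusted p = 0.0263), a call lost without TMM scaling (-0.32, adjusted p = 0.256) and with cluster 11 against whole types (adjusted p = 0.0504). Without TMM scaling it was higher than in chief cells (1.13, adjusted p = 0.000729). Its difference from neck of -0.40 ± 0.18 had an adjusted p of 0.0993 and of 0.0362 with the pool as a block.

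Cells called G1 still carried some dividing markers. The 6 dividing markers summed to 53.3 and 100 CPM in G1 isthmus cells, 47.8 and 60.3 in G1 pre-pit and 35.5 and 40.3 in G1 neck cells, against 603 and 662 in S and 1435 and 1478 in G2/M isthmus cells. The 4 ECL markers summed to 10.1 and 76.9 in G1 isthmus cells and to 10.5 and 20.9 in G1 pre-pit cells, so pool T of the isthmus stood apart. In pool K alone the G1 isthmus minus G1 pre-pit difference was 0.62 for Hmgb2, 1.97 for Uhrf1 and -0.08 for Dnmt1. The part of the dividing markers in the G1 differences was not tested.

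**Figure D4:**
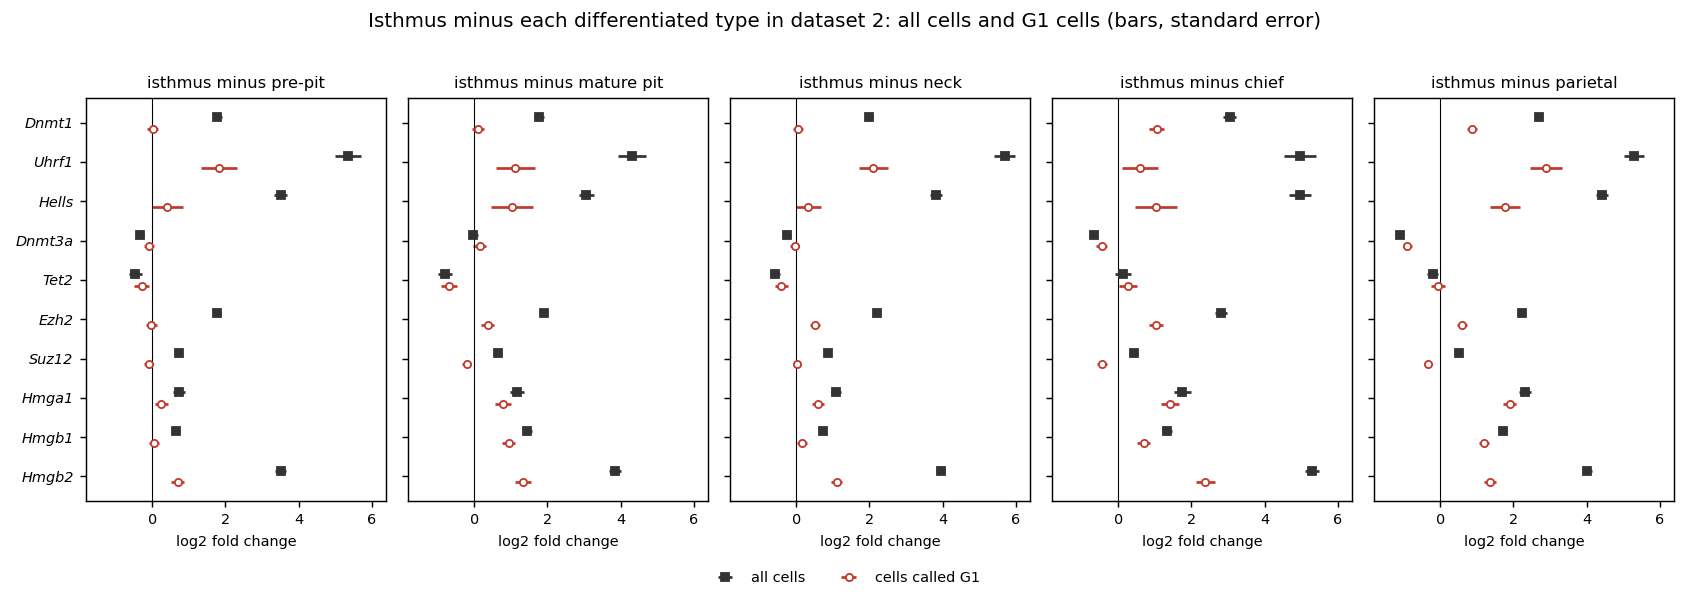
Log2 fold change of isthmus minus each differentiated type in dataset 2, with squares for all cells and open circles for cells called G1 and bars for the standard error. For Dnmt1 against pre-pit the square is at 1.78 and the circle at 0.015, and for Hmga1 against parietal cells they are at 2.32 and 1.90.

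Neck cells called S (22 in pool K and 25 in pool T) allowed phase to be compared in a second type, a comparison added after the data were seen. Dnmt1 was 48.8 and 43.7 CPM in S and 26.96 and 23.8 in G1 neck cells (0.86 ± 0.18, adjusted p = 0.0391). Ezh2 was 39.4 and 33.1 in S and 13.7 and 16.5 in G1 (1.25 ± 0.19, adjusted p = 0.00376). The S values of both lay above the G1 values in both pools, and they were the 2 calls among 7 testable genes where 0.541% of all genes were called (0.509% higher and 0.0318% lower), but with plates as the unit Dnmt1 did not pass (adjusted p = 0.175). Suz12 (0.23 ± 0.16), Hmga1 (-0.048 ± 0.30) and Hmgb1 (-0.0099 ± 0.21) did not pass. As a description, Uhrf1 was 4.73 and 21.2 in S on 3 and 16 UMIs, and Hells 17.3 and 35.8 on 11 and 27. The dividing markers of S neck cells summed to 86.6 and 63.6 CPM, far from the 603 and 662 of S isthmus cells.

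The S minus G1 difference was larger in the isthmus than in neck cells for 3 of the 7 genes, by the interaction term of the same fit. The excess on the log2 scale was 1.85 ± 0.20 for Dnmt1 (adjusted p = 0.000103), 0.93 ± 0.21 for Ezh2 (adjusted p = 0.0238) and 0.84 ± 0.19 for Suz12 (adjusted p = 0.0225), where 3.07% of all genes were called (2.59% larger and 0.477% smaller in the isthmus, 386 genes in all and 594 with the pool as a block). For Hmga1 it was 0.88 ± 0.33 (adjusted p = 0.182), and it passed with no filter on low counts (1.06, adjusted p = 0.0201) and with plates as the unit (1.31, adjusted p = 0.00877). For Dnmt3a it was 0.73 ± 0.27 (adjusted p = 0.179). The dividing markers given above differed between the S cells of the 2 types in the same direction, and their part in the excess was not tested.

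Dataset 1, prepared by another order of enzyme steps, gave a smaller second view. Its dividing cluster (4-15) held 53 cells (22 and 31) and all 6 dividing markers, and no cell of it was called G1, so phase and type could not be separated there. Against corpus pre-pit, corpus mature pit, neck and parietal cells, the same 8 genes as in dataset 2 were higher in the dividing cluster in each comparison (the Suz12 call over parietal cells was lost in DESeq2, adjusted p = 0.0898), where 20.4%, 43%, 29.3% and 60.3% of 10229 genes were called. Calls of all genes were higher in 10.8%, 22.3%, 16.2% and 32%, and lower in 9.6%, 20.6%, 13.1% and 28.3%. Dnmt1 was 108 and 143 CPM in the dividing cluster of pools 1 and 2, 48.9 and 39.7 in corpus pre-pit, 51.0 and 50.02 in neck and 8.77 and 10.9 in parietal cells. The log2 fold change was 1.48 ± 0.20 over corpus pre-pit and 1.32 ± 0.20 over neck cells. Uhrf1 had no UMI in parietal cells in either pool and 0 and 1 in corpus mature pit cells, against 85.3 and 106 CPM in the dividing cluster. With a floor of 3 UMIs per pool on the same TMM scale it was at least 44.0-fold higher there than in parietal cells by the mean of the pools, and at least 29.2-fold in pool 1 alone and 74.5-fold in pool 2 alone. Hells was 40.7 and 74.0 in the dividing cluster and had 1 and 1 UMIs in parietal and 0 and 1 in corpus mature pit cells.

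Hmgb2 was 292 and 318 in the dividing cluster and 27.6 and 28.0 in corpus pre-pit cells (3.45 ± 0.18, adjusted p = 4.82e-10). Ezh2 was 70.7 and 88.5 against 19.1 and 17.5 (2.11 ± 0.22), and Suz12 was 69.4 and 83.5 against 32.6 and 30.4 (1.28 ± 0.22). Hmga1 and Hmgb1 were close to the threshold against neck cells (0.58 ± 0.21, adjusted p = 0.0464, and 0.58 ± 0.21, adjusted p = 0.0444), and neither call held in every setting. That of Hmga1 was lost with the pool as a block (adjusted p = 0.0518), with no filter on low counts (0.054) and in DESeq2 (0.395). That of Hmgb1 was lost without TMM scaling (0.0508), with plates as the unit (0.0623) and in DESeq2 (0.309). In pool 1 alone the Hmgb1 difference from neck was 1.20. Tet2 was lower in the dividing cluster than in corpus pre-pit cells (10.2 and 13.5 against 26.2 and 26.9, -1.14 ± 0.28, adjusted p = 0.00754) and than in parietal cells (-0.67 ± 0.28, adjusted p = 0.0484, and 0.0527 with the pool as a block). The parietal call was also lost without TMM scaling (adjusted p = 0.442), with DESeq2 size factors in edgeR (adjusted p = 0.0584), without mitochondrial genes (adjusted p = 0.0649), with plates as the unit (adjusted p = 0.103), with no filter (adjusted p = 0.147) and in DESeq2 (adjusted p = 0.283), which did not call Tet2 or Hmga1 against corpus pre-pit cells either (adjusted p = 0.199 and 0.255). Dnmt3a was 15.9 and 20.004 in the dividing cluster and 53.6 and 47.0 in parietal cells (-1.45 ± 0.25, adjusted p = 6.66e-05), and did not pass in the other 3 comparisons.

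Within the dividing cluster of dataset 1, S cells (6 and 13) and G2/M cells (16 and 18) were too few for a test and are described in plain CPM. Dnmt1 was 196 and 247 in S and 106 and 119 in G2/M. Uhrf1 was 339 and 254 in S and 29.1 and 42.5 in G2/M, and Hmgb2 was 189 and 194 in S and 389 and 490.1 in G2/M. Dnmt1 and Uhrf1 were higher in S and Hmgb2 higher in G2/M in both pools.

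**Figure D5:**
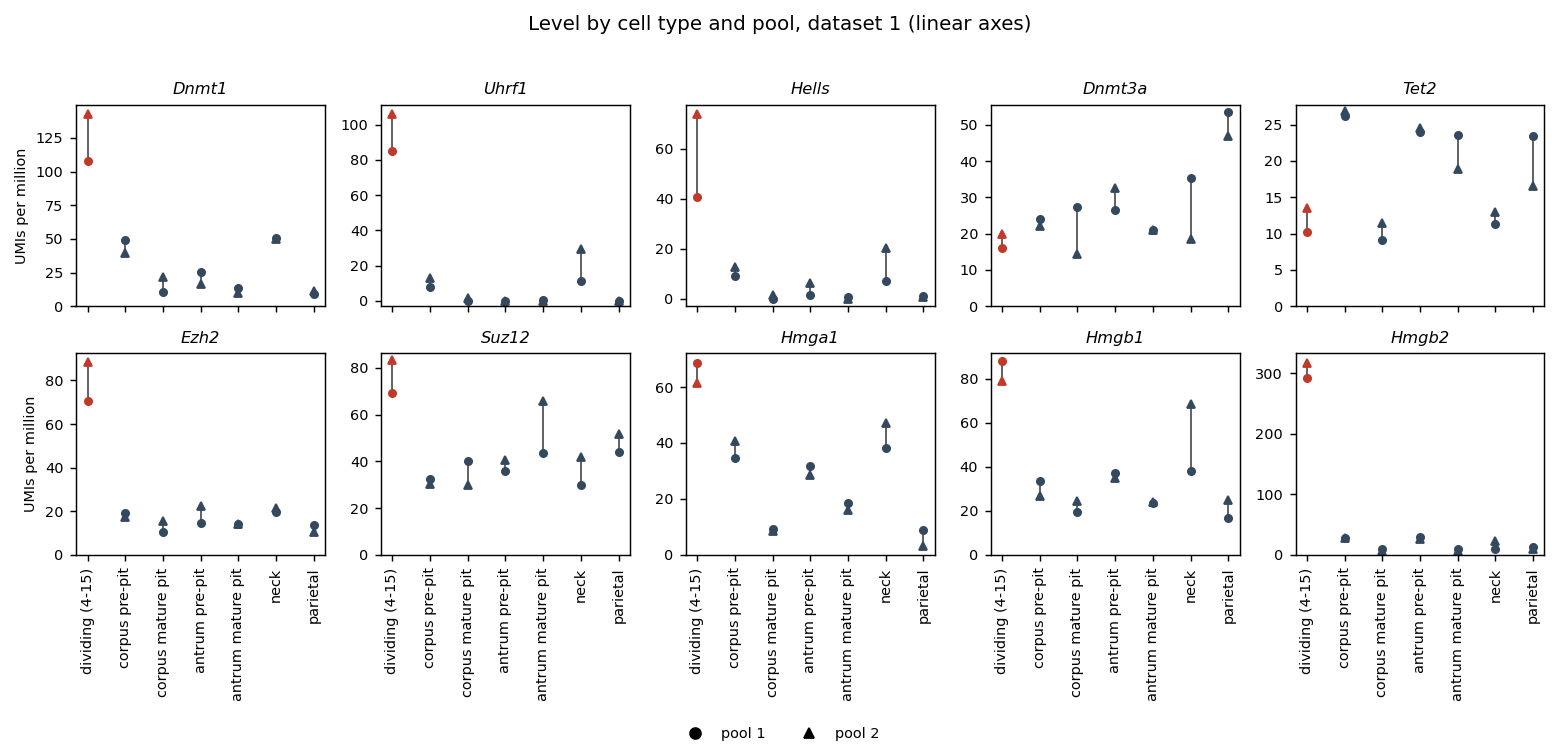
CPM (linear axis) of each gene by cell type in dataset 1, with a circle for pool 1 and a triangle for pool 2 joined by a line. The dividing cluster, in red, holds the highest points for 8 genes, and among the 7 types plotted parietal cells hold the highest for Dnmt3a and corpus pre-pit cells the highest for Tet2.

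Other genes of the same pathways were read from lists by function, as counts of called genes with log2 fold changes. Between S and G1 of the isthmus 25.9% of all genes were called (14.5% higher and 11.3% lower), and the counts of each list stand beside that share. Between S and G1 of the isthmus, 5 of 9 further PRC2 genes were higher and 2 lower (median 0.53, against -0.024 over all genes). The accessory subunit Phf19 (3.40) and the histone-binding subunit Rbbp4 (1.06) were higher, and Jarid2 (-0.63) and Ezh1, the second methyltransferase (-0.52), were lower. Histone chaperones gave 6 of 8 higher (median 0.85), among them Asf1b (6.04) and Chaf1a (4.62), which load histones behind the replication fork. Genes of heterochromatin gave 4 of 8 higher and 1 lower, led by the histone methyltransferases Suv39h1 (2.62) and Suv39h2 (1.83). The list of DNA methylation gave 2 of 12 higher, the glycosylase Mbd4 (1.67) and Mbd3 (0.40), and 2 lower, Tet3 (-0.54) and Zbtb33 (-0.41), at a median of 0.12, a share of calls near that of all genes.

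Further high mobility group genes gave 4 of 8 higher in S than in G1 and 2 lower, where 25.9% of all genes were called, among them Hmgb3 (0.83) and Hmga2 (0.60), which were higher, and Hmgn3 (-0.46), which was lower. PRC1 genes gave 5 of 16 higher and 1 lower, with Cbx2 (2.09) and Pcgf6 (0.81) higher and Pcgf1 (-0.56) lower. Remodellers of the SNF2 family and their partners gave 1 of 11 higher (Smarca5, 0.49) and 1 lower (Ino80, -0.48), not above the share of all genes. The PRC1 calls exceeded that share, at a median of -0.011 over the list. Of the replication and mitosis genes outside the phase lists, 2 of 2 (Mcm3 and Mcm7) and 2 of 2 (Plk1 and Ccnb1) were higher in S.

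Over all cells, where 27.8% of all genes were called (15.5% higher), isthmus minus pre-pit gave 8 of 10 histone chaperones higher, 5 of 9 heterochromatin genes, 5 of 9 PRC2 genes, 3 of 8 high mobility group genes, 4 of 16 PRC1 genes, 3 of 12 remodellers and 2 of 12 genes of DNA methylation, of which 1 more was lower (Tet3, -0.43). The shares of the last 3 lists were near that of all genes. In G1 cells, where 10% of all genes were called, the same comparison gave 0 of 9 PRC2 genes, 0 of 9 heterochromatin genes, 0 of 12 remodellers and 0 of 12 genes of DNA methylation in either direction, counts near that share, with 2 of 10 histone chaperones higher (Nasp, 0.79, and Nap1l1, 0.56) and 1 of 8 high mobility group genes (Hmgn3, 0.59). Of 16 PRC1 genes 2 were higher and 1 lower. Cbx6 was higher (0.90) and Pcgf3 lower (-0.91), and both also differed over all cells (1.08 for Cbx6 and -0.97 for Pcgf3). Replication genes gave 1 of 12 higher (Fen1, 1.48) and mitosis genes 0 of 12, with medians of 0.43 and 0.57, where over all cells 12 of 12 and 12 of 12 had been higher. All but 2 genes of each of these lists are in the phase lists, as are Nasp, Chaf1b, Cbx5 and Cdca7 of the others. Low levels of those genes were part of the G1 call in both types, so no conclusion is drawn from the replication and mitosis counts. The medians of the other lists in G1 lay between 0.10 and 0.30, against 0.021 over all genes.

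The genes whose levels most resembled each member were found by Pearson's r of log2 CPM over 28 sums (14 epithelial clusters in 2 pools), which share their mice and depth, so r is a description. Dnmt1 was nearest to Topbp1 (r = 0.97), Senp1 and Nsd2, Uhrf1 to Exo1 (r = 0.95), Chaf1a and Chaf1b and Hells to Mcm7 (r = 0.98), Mcm5 and Slfn9. Ezh2 was nearest to Dut (r = 0.96), Nup155 and Hspa14, and Suz12 to Nelfe (r = 0.91), Cep152 and Srsf10. Hmgb2 was nearest to Ckap2 (r = 0.97), Mad2l1 and Racgap1, Hmgb1 to Dcps (r = 0.94), Nup37 and Hnrnpul1 and Hmga1 to Mfsd10 (r = 0.97), Trim28 and Itpripl1. Dnmt3a was nearest to Ccdc84 (r = 0.90), Nol3 and Bin1, and Tet2 had no gene above r = 0.79 (Fbxo11, then Trim12a and Snap23). Over the 14 sums of dataset 1 the first gene of each set had r = 0.88 with Dnmt1, 0.91 with Uhrf1, 0.95 with Hells and 0.96 with Hmgb2. It was 0.88 with Hmga1, 0.82 with Hmgb1, 0.76 with Ezh2, 0.54 with Suz12, 0.41 with Dnmt3a and 0.24 with Tet2.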

How the data were processed

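Quartz-Seq2 reads of 18 plates of 384 wells were aligned by the authors to GRCm39 with STAR, with Gencode genes and steps of Drop-seq tools and of FASTX-Toolkit (bcl2fastq 2.20.0.422 per the labels' processing notes), and UMI counts per gene name and well were deposited without normalization. Whether reads were counted by strand is not given in the sources used here. The authors removed cells with few detected genes, clustered the rest with Seurat without integration, and deposited for each cell its cluster, its phase call with the S and G2/M score behind it, and the percent of UMIs on mitochondrial genes, a value that was not used for any filter here. Plate totals of UMIs were 3054370 to 5346035 in dataset 1 and 10540256 to 12850942 in dataset 2, and the kept cells had the same total in the plate tables and in the joined tables for 491 of 491 and 3993 of 3993 cells. No doublet caller was run.

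Counts were summed per cell type, or type and phase, and pool (at least 10 cells in each pool), giving 12, 18 and 14 sums for the fits of types and of phases in dataset 2 and of types in dataset 1. Each was fitted in edgeR 4.0.16 (R 4.3.3, limma 3.58.1, TMM, filterByExpr, quasi-likelihood test), with p-values adjusted by Benjamini and Hochberg over 13894, 12576 and 10229 genes, a call at an adjusted p under 0.05, and residual degrees of freedom of 6, 9 and 7. Standard errors were computed as the log2 fold change divided by the square root of F. Pools were the replicates and plates were not, so a p-value measures the spread between 2 pools, which were prepared by 2 operators. Phase calls were remade with Seurat 5.3.0, with and without the members. Counts with known folds were simulated for 1 comparison per fit, without a pairing of pools. Every gene was given equal levels in all groups, except a small set of genes changed in 1 group. Many more genes were called in the real comparisons, so the recovery and false calls may not carry over to them. The steps recovered 81.5% of 2-fold changes for isthmus minus neck (13270 genes) and 73.4% for S minus G1 (12011 genes). They recovered 71.4% for G1 isthmus minus G1 pre-pit (11982 genes) and 45.2% for dividing minus neck of dataset 1 (9574 genes). Of 1.5-fold changes 53.8%, 38.5%, 30.2% and 6.35% were recovered in that order, with 19, 12, 5 and 11 false calls among unchanged genes.

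A pool is the same mice in each type, so pools pair the sums. Deviations from the group means of sums of the same pool had a median correlation of 0.132 over 15 pairs of types (0.0689 to 0.411), 0.131 over 36 pairs of types and phases (0.0289 to 0.418) and 0.0245 over 21 pairs of types of dataset 1 (-0.0287 to 0.0533). Alternatives were a block for the pool, other scaling, no filter on low counts, DESeq2 1.42.0, mitochondrial genes left out, plates as the unit, each pool alone and other models of phase. The 10 genes and the pathway lists were chosen with earlier results of these data known. Named beyond them are the 3 genes of highest likeness to each member and, per list and comparison, up to 2 called genes of largest change in each direction. The authors' separate plate tables were used for depth. Some genes of the pathway lists are not reported here.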

Additional observations from a re-analysis of the deposited data

Results flagged for a closer look

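The difference between S and G1 cells was not the same in isthmus and neck cells for 3 genes, by the interaction term of type and phase in the edgeR quasi-likelihood test. The isthmus difference exceeded the neck difference by 1.8528 on the log2 scale for Dnmt1 (adjusted p = 0.000103), by 0.9325 for Ezh2 (adjusted p = 0.0238) and by 0.838 for Suz12 (adjusted p = 0.0225). The S sum of neck cells rested on 22 and 25 cells, against 239 and 250 in the isthmus. No plate stood apart from the other 5 plates of its pool for any of the 10 genes in the isthmus of dataset 2 (20 groups of 6 plates).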

How the results depend on the processing

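Over all alternatives, 1939 values of the 10 genes counted as the same, 43 lost and 35 gained a call, 49 moved by more than the spread between pools and 44 changed sign. With a test, the same meant an unchanged direction and side of the threshold, or only direction for phase-list genes under recalled phases. Values with no test counted as the same within the spread between pools, among them 70 and 313 of 1 pool alone in datasets 1 and 2. The 44 leave out 25 sign changes of 1 pool alone. Of the counts of called genes, 153 stayed within 1.5 times while 16 did not. In 6 of the 44 there was a call before or after, all on dropping TMM scaling, which moved the median of all genes by up to 0.88: Dnmt3a became 0.2145 in isthmus minus chief, -0.3926 in chief minus neck and 0.4141 in G1 isthmus minus chief. Suz12 became -0.3679 in chief minus neck, 0.4238 in G1 isthmus minus chief and 0.1367 in G1 isthmus minus parietal.

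The other 38, given as log2 fold changes, were not called before or after. Without TMM scaling they were Dnmt3a 0.3339 (isthmus minus mature pit), Tet2 0.2954 (isthmus minus parietal), Dnmt1 -0.1224 and Suz12 -0.0523 (mature pit minus pre-pit), Uhrf1 -0.0829 (chief minus neck), Hmga1 0.0062 and Hmgb1 0.0423 (neck S minus neck G1), Dnmt3a 0.0991, Ezh2 0.1599 and Suz12 0.09 (G1 isthmus minus pre-pit), Suz12 0.1503 (G1 isthmus minus mature pit), Tet2 0.4166 (G1 isthmus minus parietal) and Dnmt3a 0.2382 (dividing minus corpus mature pit). With no filter they were Dnmt3a 0.0669 (isthmus minus mature pit), Dnmt1 -0.0023 (mature pit minus pre-pit), Tet2 0.1206 (interaction), Dnmt1 -0.0227 and Suz12 -0.0505 (G1 isthmus minus neck) and Tet2 0.0109 (dividing minus neck). With plates as the unit they were Dnmt3a 0.0047 (isthmus minus mature pit), Dnmt1 -0.0105 (mature pit minus pre-pit), Suz12 -0.0069 (G1 isthmus minus neck) and Tet2 0.0048 (G1 isthmus minus parietal). In DESeq2 they were Hmgb1 0.03 (neck S minus neck G1) and Dnmt1 -0.0064 (G1 isthmus minus pre-pit). With DESeq2 size factors they were Hmgb1 0.0282 (neck S minus neck G1) and Dnmt1 -0.0065 (G1 isthmus minus pre-pit). In cluster 6 alone they were Tet2 -0.1173 and Suz12 0.1349 (G2/M minus S). In the additive model they were Dnmt3a 0.0284, Ezh2 0.2127 and Suz12 0.0903 (G1 isthmus minus pre-pit) and Dnmt3a 0.1175 (G1 isthmus minus neck). With cluster 11 against whole types they were Ezh2 0.1041 and Hmgb1 -0.1579 (G1 isthmus minus pre-pit), Hells -0.022 (G1 isthmus minus mature pit), Hmgb1 -0.0654 (G1 isthmus minus neck) and Tet2 0.122 (G1 isthmus minus parietal).

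Counts of called genes moved past 1.5 times as follows, and the cause was not tested beyond what each setting changes. With plates as the unit they were 2590 for mature pit minus pre-pit (1439 by pools), 4868 for G2/M minus S (2915), 141 for neck S minus G1 (68), 871 for the interaction (386) and 2671 for G1 isthmus minus pre-pit (1263). Without scaling they were 9800 for chief minus neck (5358) and 1919 for G1 isthmus minus pre-pit, which had 1957 with cluster 11 against whole pre-pit cells. Cluster 6 alone gave 880 for G2/M minus S. With no filter, neck S minus G1 had 189 and the interaction 1039, and DESeq2 gave 146 for the former. In dataset 1 DESeq2 gave 863 over corpus pre-pit (2083), 2740 over corpus mature pit (4397) and 1458 over neck cells (2996).

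With the pool as a block, calls were gained for Tet2 in isthmus minus pre-pit (adjusted p = 0.00801), Hmga1 in chief minus neck (0.0394), Hmga1 in G2/M minus G1 (0.0301) and Tet2 in G1 isthmus minus neck (0.0362). Calls were lost in dataset 1 for Hmga1 over neck (0.0518) and Tet2 over parietal cells (0.0527). The interaction then had 594 called genes, and the block changed no other call.

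Each pool alone gave log2 fold changes with no test, since 1 sum per group leaves no residual degrees of freedom, and no counts of called genes. No called value of the 10 genes changed sign, while 25 that were not called did. Uhrf1 in isthmus minus mature pit ran from 3.62 without pool K to 5.81 without pool T, and without pool T Hmga1 in isthmus minus chief was 2.399. Without pool 2 of dataset 1, the dividing cluster minus neck was 2.90 for Uhrf1, 1.20 for Hmgb1 and 4.87 for Hmgb2. Depth limits the low genes: Uhrf1 and Hells had under 20 UMIs per pool in G1 isthmus cells.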
